A study of Mus musculus with 4 samples.

Results

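The 4 lipocalin genes Obp2a, Mup3, Mup20 and Mup21 were followed in the livers of SREBP1c knockout (KO) and wild-type (WT) mice. They were found by their symbols in a deposited table of 23920 genes, and the FPKM (fragments per kilobase of transcript and M mapped fragments, where M is mega) of a gene's transcript rows were summed. Of 5 names looked for, 4 had a row of their own, and Lcn13 is listed by RefSeq as a synonym of Obp2a, so both names stand for 1 gene. Each of the 4 genes had a single row, none was at 0 in any library, and all 4 had a mean of at least 1 FPKM. The members were chosen by these same FPKM values, for the higher Obp2a in KO, so its KO and WT values are described here without a test, and the same holds for the Mup members.

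The study sequenced liver RNA in 4 libraries, 2 labelled SREBP1c KO and 2 labelled SREBP1c WT. All came from male C57BL/6 mice aged 12 weeks that had gone without food for 24 h and were then refed for 12 h, so that the fast and the refeeding are common to both genotypes. The labels do not say how the knockout allele was made, whether littermates were used or whether animals were pooled, and they do not state that each library came from another animal, so the spread between libraries may be technical. Srebf1, the gene of SREBP1c, had 8.63 and 6.97 FPKM in KO livers, against 63.7 and 58.2 FPKM in WT livers, which went with the labels (log2 difference −2.82, SE 0.13, limma adjusted p = 0.00172). The difference of Srebf1 was −2.76 with WT replicate 1 left out and −2.88 with WT replicate 2 left out, at limma adjusted p = 0.114 and 0.0898, where the spread comes from the KO pair alone and the lone WT library is assumed to vary like it. With no filter on low values the difference was −2.82 and the adjusted p 0.104.

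Lipocalins are small secreted proteins with a cup-shaped barrel that binds hydrophobic molecules. In mice, LCN13, the product of Obp2a, is a circulating lipocalin that was described to improve insulin sensitivity and to lower glucose output by hepatocytes, and obese mice have less of it. Major urinary proteins (MUPs) are made in the liver in large amounts, mostly in males under the control of growth hormone, pass into urine and carry pheromones, and MUP1 was likewise described as a circulating regulator of glucose and lipid metabolism. SREBP1c is the insulin-responsive activator of fatty acid synthesis genes, and feeding normally raises it.

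The upstream sequences show how the genes fall into pairs. The following runs lie before the transcript start that the RefSeq promoter table uses for each gene (GRCm38.p6), 5′ to 3′ on the gene's strand, with matches to a TATA box (TATAAA or TATATAA) in capitals. Obp2a (chr2:25699824-25700042, plus strand) is set beside its neighbour Obp2b (chr2:25736757-25737006, plus strand), and Mup3 (chr4:62087318-62087567, minus strand) beside Mup21 (chr4:62150842-62151091, minus strand). They are shown because members of a pair share most letters here. Each window holds 250 bases, of which 219 are printed for Obp2a, since GENCODE M21 places the last 31 inside its transcript. For Mup3 and Mup21 GENCODE places the last 25 and 22 bases inside the gene. The RefSeq gene spans of Obp2a and Obp2b, which take in all models of a gene, reach 2497 and 22898 bases farther upstream than these starts, so for both the windows lie within the listed span.
Obp2a: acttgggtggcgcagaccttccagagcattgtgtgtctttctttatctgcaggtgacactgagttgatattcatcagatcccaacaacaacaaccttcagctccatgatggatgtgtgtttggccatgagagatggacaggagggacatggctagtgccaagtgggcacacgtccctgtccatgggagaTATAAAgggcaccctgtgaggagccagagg
Obp2b: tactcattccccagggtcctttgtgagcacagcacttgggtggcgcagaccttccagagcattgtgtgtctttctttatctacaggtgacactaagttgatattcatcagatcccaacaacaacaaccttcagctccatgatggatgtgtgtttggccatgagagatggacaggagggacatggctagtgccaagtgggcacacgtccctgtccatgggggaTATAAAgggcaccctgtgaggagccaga
Mup3: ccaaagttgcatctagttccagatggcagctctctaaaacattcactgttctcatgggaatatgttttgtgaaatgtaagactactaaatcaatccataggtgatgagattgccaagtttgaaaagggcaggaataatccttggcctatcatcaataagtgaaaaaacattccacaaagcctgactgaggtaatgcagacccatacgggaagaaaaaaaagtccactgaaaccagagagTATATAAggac
Mup21: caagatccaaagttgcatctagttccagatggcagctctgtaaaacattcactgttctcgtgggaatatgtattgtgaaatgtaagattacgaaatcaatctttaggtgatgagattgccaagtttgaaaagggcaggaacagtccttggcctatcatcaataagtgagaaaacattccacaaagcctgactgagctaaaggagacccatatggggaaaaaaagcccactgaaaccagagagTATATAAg

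The Obp2a and Obp2b windows aligned over 217 columns with 3 mismatches and no gap, an identity of 98.6%. TATAAA began 61 bases before the RefSeq start of Obp2a and 28 bases before that of Obp2b, while it began 30 bases before the GENCODE start in both. The Mup3 and Mup21 windows were 92.7% identical over 247 columns, with 15 mismatches and 3 gap columns. Each held TATATAA close to the RefSeq start, 11 and 8 bases before it. Counted as bases before the GENCODE start it began at −14 in both, so GENCODE places this match inside the gene. TATAAA on either strand was present in 12.4% and TATATAA in 3.04% of all 32851 promoter windows of the same length.

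Other motifs were searched on both strands of the same windows. The sterol regulatory element, taken as TCACNCCAC, was in 1.05% of all windows and had no match in these 4. The palindromic E-box CACGTG, in 6.02% of all windows, the STAT5 element TTCNNNGAA, in 7.02%, and the C/EBP element TTGCNNAA, in 9.56%, had none either. The nuclear receptor half-site AGGTCA was found once, on the minus strand 17 bases before the RefSeq start of Obp2a in the stretch not printed, and is present in 14% of all windows. No motif searched overlapped another in these windows, and a match describes the letters only.

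Obp2a lies on chromosome 2 (25697577 to 25703326) in a cluster of lipocalin genes. It had 39.5 and 24.8 FPKM in KO livers, against 5.16 and 5.50 FPKM in WT livers. Both KO libraries lay above both WT libraries, KO replicate 1 was the highest, and the WT libraries were close to each other. The means were 32.1 ± 10.4 FPKM in KO and 5.33 ± 0.239 FPKM in WT (SD, n = 2 each), a 6.03-fold higher mean in KO and a log2 difference of 2.35 of log2(FPKM + 1), a scale that compresses differences at low levels. Leaving out 1 library gave a fold of 4.65 without KO replicate 1, 7.40 without KO replicate 2, 5.84 without WT replicate 1 and 6.22 without WT replicate 2. At the depth implied by the steps between low FPKM values, these levels corresponded to about 669 and 382 fragments in KO and 87.6 and 85.1 in WT, if the transcript is the 744 bases long one of GENCODE.

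**Figure D1:**
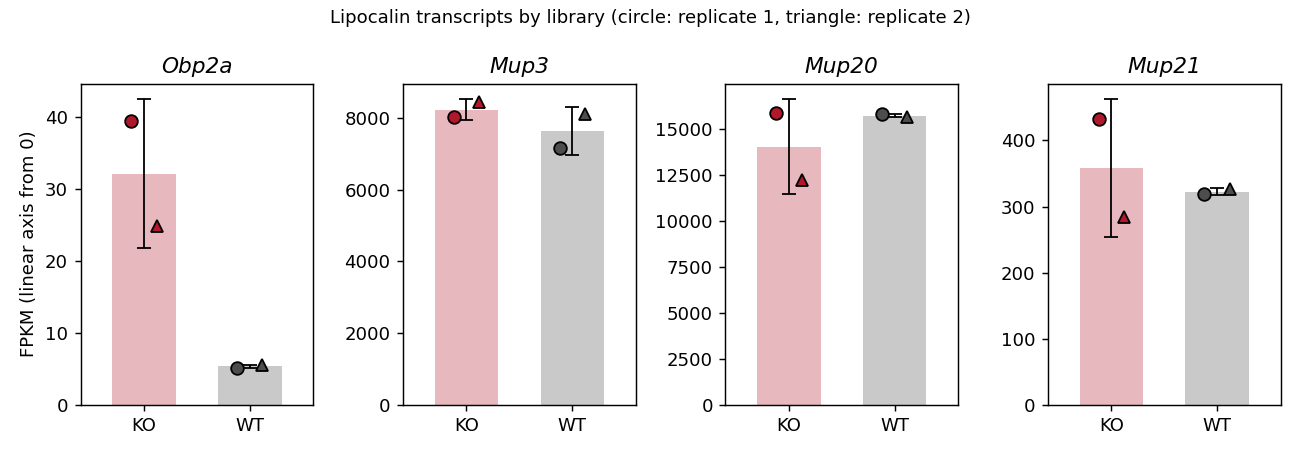
FPKM of the 4 lipocalin genes in KO and WT libraries, with bars at the group mean, error bars of 1 SD (n = 2 each) and 1 point per library. The KO points of Obp2a (39.5 and 24.8) lie above both WT points (5.16 and 5.50), while the groups overlap for Mup3, Mup20 and Mup21.

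Among the 9820 genes with a mean of at least 1 FPKM, 5 had a larger positive log2 difference than Obp2a. Named here after their values were seen, they were Mir703, Mt2, Mir6340, Cfd and Snord22. Mir703 and Mir6340, microRNA precursors, were listed above 0 in KO replicate 2 alone, at 214 and 105 FPKM, and Snord22, a small nucleolar RNA, in KO replicate 1 alone at 40.3 FPKM. Mt2, a metallothionein gene, had 8.67 and 230.3 FPKM in KO livers, against 3.74 and 3.29 FPKM in WT livers. Cfd, which encodes adipsin, had 3.83 and 32.1 FPKM in KO livers, against 0.437 and 0.120 FPKM in WT livers. Mt2 and Cfd thus differed between the 2 KO libraries far more than Obp2a did. A log2 difference of at least 1 in either direction was reached by 70 genes, or 0.713%.

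**Figure D2:**
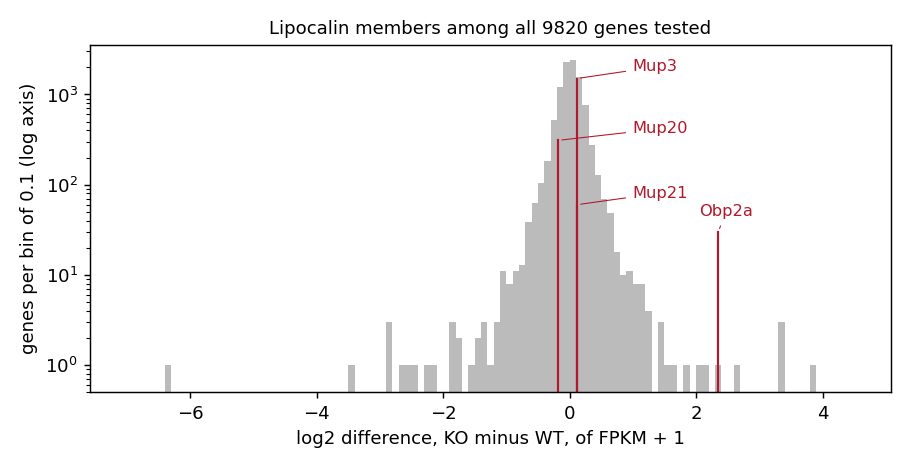
Number of genes (log axis) by log2 difference, KO minus WT, of FPKM + 1, with the 4 lipocalin genes marked by lines whose height has no meaning. Obp2a lies at 2.35, and Mup3 (0.11), Mup20 (−0.18) and Mup21 (0.12) lie in the bulk of the 9820 genes.

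In the limma fit over these 9820 genes (moderated test, Benjamini-Hochberg adjusted p under 0.05), 1 gene, 0.0102%, was called higher and 6 genes, 0.0611%, were called lower in KO, 0.0713% in either direction, and 7.75% of genes had an unadjusted p under 0.05. The 1 called higher was Obp2a itself, and since it was chosen for this contrast nothing is read from that. The 6 called lower were Pttg1, Mir692-2, 2610507I01Rik, Srebf1, Camk1d and Cyp17a1. Both KO libraries were above both WT libraries in 22.4% of the genes and below them in 16.4%. The total of 7 calls changed widely with 1 library left out, rising without a KO library and falling without a WT library. The spread then comes from the pair of the other genotype alone, and the lone library is assumed to vary like it. The same holds for every change of a count given below with a library left out.

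The genes around Obp2a were described for comparison. Bmyc, the next coding gene, had 9.60 and 6.68 FPKM in KO livers, against 7.86 and 8.69 FPKM in WT livers, and the groups overlapped. Obp2b, the gene after it, had 0.147 and 0.0806 FPKM in KO livers, against 0 and 0.0805 FPKM in WT livers, close to the level of single fragments. Lcn10 and Lcn6, the 2 coding genes on the other side, were listed at 0 in all 4 libraries, which in this table does not give their level. Across their whole transcripts Obp2a and Obp2b were 77.5% identical over 605 aligned columns, and 88.3% of the 50-base stretches of Obp2a were found in no other Mup, Obp or Lcn transcript of GENCODE. The pair therefore had nearly the same upstream letters, separable transcripts and mean levels of 18.7 FPKM for Obp2a and 0.0770 FPKM for Obp2b over the 4 libraries.

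Mup20 encodes darcin, a male pheromone that draws females to the scent mark of its owner. It lies on chromosome 4 (62011337 to 62054143) and had the highest mean level of all genes in the table. It had 15892 and 12211 FPKM in KO livers, against 15807 and 15688 FPKM in WT livers. KO replicate 2 was the lowest library, while KO replicate 1 lay slightly above both WT libraries, so the groups overlapped. The means were 14052 ± 2602 FPKM in KO and 15748 ± 84.1 FPKM in WT (SD, n = 2 each), and the log2 difference was −0.18. It became 0.01 without KO replicate 2 and −0.37 without KO replicate 1.

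Mup3, another urinary protein gene made by the liver (chromosome 4, 62083476 to 62087317), was the fifth most abundant gene in the table. It had 8024 and 8446 FPKM in KO livers, against 7154 and 8113 FPKM in WT livers. KO replicate 1 lay between the WT libraries, so the groups overlapped. The means were 8235 ± 298 FPKM in KO and 7633 ± 678 FPKM in WT (SD, n = 2 each), with a log2 difference of 0.11, which ranged from 0.02 without WT replicate 1 to 0.20 without WT replicate 2.

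Mup21 (chromosome 4, 62147832 to 62150841) had 432 and 284 FPKM in KO livers, against 318 and 327 FPKM in WT livers. The KO libraries lay on either side of the WT libraries. The means were 358 ± 105 FPKM in KO and 323 ± 5.92 FPKM in WT (SD, n = 2 each), with a log2 difference of 0.12 that became −0.18 without KO replicate 1 and 0.42 without KO replicate 2. The direction of Mup21 and of Mup20 was therefore set by which KO library was kept.

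The order of levels, which FPKM allows since it is per length, was the same in every library, with Mup20 first, then Mup3, Mup21 and Obp2a. The lowest Mup20 library (12211 FPKM) was above the highest Mup3 library (8446 FPKM), and the highest Mup21 library (432 FPKM) was below every Mup3 library. Mup20 was 1.98 and 1.45 times the level of Mup3 in KO livers, against 2.21 and 1.93 times in WT livers. Mup3 was 18.6 and 29.7 times the level of Mup21 in KO livers, against 22.5 and 24.8 times in WT livers. The ratio of Mup20 to Mup3 was lowest in KO replicate 2, and for both ratios the groups overlapped.

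Beyond these members, the table held 20 Mup genes in 24 transcript rows. Of these, 14 genes in 18 rows were listed at 0 in all 4 libraries, Mup1 and Mup2 among them. Mup1 is the member of the family described as a regulator of glucose metabolism, so no level of it can be given here. Alb, the albumin gene, which hepatocytes express at a very high level, was also listed at 0, so a 0 is not read as absence of the RNA. The 6 Mup genes above 0 added up to 24411 and 21003 FPKM in KO livers, against 23364 and 24190 FPKM in WT livers. This was 4.43% and 3.90% of the summed FPKM of the table in KO, against 4.35% and 4.46% in WT.

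The Mup genes at 0 and above 0 differed in how much sequence they held alone. Of the 14 genes at 0, between 0% and 21.9% of the 50-base stretches of the longest coding transcript were found in no other Mup, Obp or Lcn transcript, with a median of 8.47%. In the 6 genes above 0 this share ran from 49.9% in Mup20 to 95.7% in Mup6, with a median of 84.1%. The closest relative was 98.7% to 99.6% identical for the genes at 0 and 90.8% to 94.7% identical for those above 0. Within the members the shares were 84.4% for Mup3, 80.7% for Mup21 and 49.9% for Mup20, so that reads of Mup20 are the least separable from those of its relatives and its level is the least certain of the 3. How the authors' program treated fragments that match several genes is not given in the sources used here, and its part in these zeros was not tested.

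**Figure D3:**
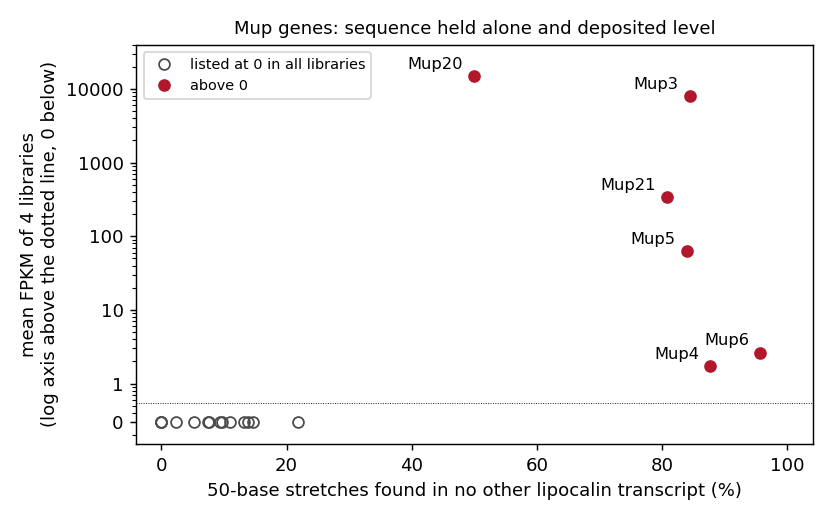
Mean FPKM of the 4 libraries against the share of 50-base stretches that no other Mup, Obp or Lcn transcript holds, 1 point per Mup gene, on a log axis with the genes at 0 below the dotted line. The 14 genes at 0 lie between 0% and 21.9%, and the 6 genes above 0 between 49.9% and 95.7%.

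Of the less abundant Mup genes, Mup5 had 60.4 and 55.1 FPKM in KO livers, against 81.1 and 57.6 FPKM in WT livers. Mup6 had 1.12 and 3.62 FPKM in KO livers, against 2.45 and 3.31 FPKM in WT livers. Mup4 had 1.29 and 2.71 FPKM in KO livers, against 1.44 and 1.42 FPKM in WT livers. In each of the 6 Mup genes the KO and WT libraries overlapped, as they did in most genes tested. Both KO libraries were above both WT libraries in 22.4% of all genes tested and below in 16.4%. Of the 6 Mup genes, 3 had a positive and 3 a negative log2 difference. Their median was −0.03, beside 0.02 for all genes tested. Of the 3 that are no members, Mup4, Mup5 and Mup6, none was called in the limma fit and none had an unadjusted p under 0.05. The log2 difference of Mup6 was −0.30, and −0.87 without KO replicate 2.

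The other lipocalins served as the comparison within the family. Of 21 in the table, 8 had a mean of at least 1 FPKM and 7 were listed at 0 in all libraries. Rbp4, the plasma carrier of retinol, had 5273 and 3767 FPKM in KO livers, against 4438 and 4489 FPKM in WT livers. Ambp, the precursor of α1-microglobulin and bikunin, had 1515 and 2031 FPKM in KO livers, against 1804 and 1865 FPKM in WT livers, and C8g, the lipocalin subunit of complement C8, had 322 and 283 FPKM in KO livers, against 258 and 295 FPKM in WT livers. These 3 overlapped between the groups.

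Apom, a carrier of sphingosine-1-phosphate in plasma lipoproteins, was the only 1 of the 8 whose groups did not overlap, with 305 and 221 FPKM in KO livers, against 335 and 309 FPKM in WT livers (log2 difference −0.31, SE 0.18, limma adjusted p = 0.733). For comparison, both KO libraries were below both WT libraries in 16.4% of all genes tested and above in 22.4%. Lcn2, an iron-siderophore binding lipocalin of the acute phase response, had 7.19 and 172 FPKM in KO livers, against 8.99 and 15.1 FPKM in WT livers. The acute phase orosomucoids Orm1, Orm2 and Orm3 were likewise highest in KO replicate 2 and lowest in KO replicate 1. Orm1 had 815 and 1948 FPKM in KO livers, against 1117 and 1220 FPKM in WT livers. Orm2 had 13.8 and 133 FPKM in KO livers, against 27.5 and 33.7 FPKM in WT livers, and Orm3 had 2.30 and 6.26 FPKM in KO livers, against 3.08 and 3.40 FPKM in WT livers. None of the 8 was called by limma and none had an unadjusted p under 0.05. The count of calls rose with either KO library left out, as the count over all genes did.

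**Figure D4:**
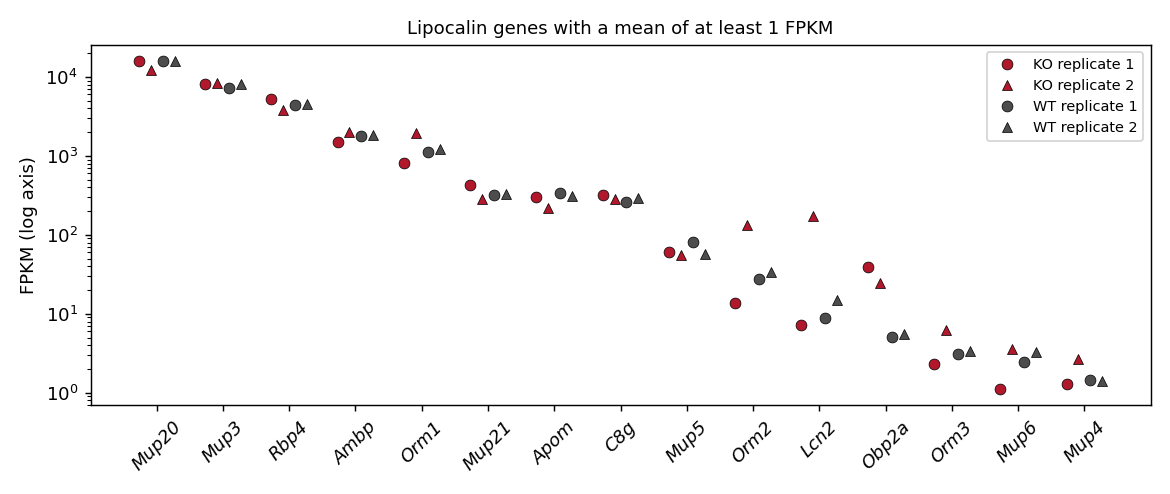
FPKM (log axis) of the 15 lipocalin genes with a mean of at least 1 FPKM in each of the 4 libraries, ordered by mean level. The KO points of Obp2a stand above its WT points, while Lcn2 and Orm2 are highest in KO replicate 2 and lowest in KO replicate 1.

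Within the KO group, Obp2a was highest in the library in which Lcn2 and the orosomucoids were lowest. KO replicate 2 lay above both WT libraries for Obp2a and for these genes alike. The acute phase list as a whole summed to 13561 and 34281 FPKM in KO livers, against 15593 and 19638 FPKM in WT livers. Whether fewer cells of a type or less RNA per cell lies behind a level cannot be told apart in whole tissue.

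The genes whose values ran closest to Obp2a were found by the Euclidean distance between profiles of log2(FPKM + 1) over the 4 libraries, each centred on its own mean. The 6 nearest of 9819 other genes, leaving out predicted gene names, were Sqle, Cidec, Sc4mol, Hmgcs1, Cyp51 and Erdr1. Sqle, squalene epoxidase, was the nearest at a distance of 0.94, with 100.03 and 56.4 FPKM in KO livers, against 28.8 and 25.6 FPKM in WT livers. Sc4mol, Hmgcs1 and Cyp51 encode further enzymes of cholesterol synthesis and lay at distances of 1.21, 1.23 and 1.25. Cidec, a lipid droplet protein gene, had 8.41 and 6.75 FPKM in KO livers, against 3.09 and 2.23 FPKM in WT livers, at a distance of 1.19. For all 6, each KO library lay above each WT library, which being near to Obp2a brings with it. The same 6 were nearest with a pseudocount of 0.5 and with both other scalings, and 4 of them with a pseudocount of 0.1. With 1 library left out, 0 of the 6 stayed without KO replicate 1, 2 without KO replicate 2, 3 without WT replicate 1 and 4 without WT replicate 2. Without KO replicate 1 the nearest were Steap4, Orm2, Saa3, Ccrn4l, Saa4 and Fgl1, of which Orm2, Saa3 and Steap4 are in the acute phase list. The cholesterol enzymes among the nearest genes therefore rest on KO replicate 1.

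**Figure D5:**
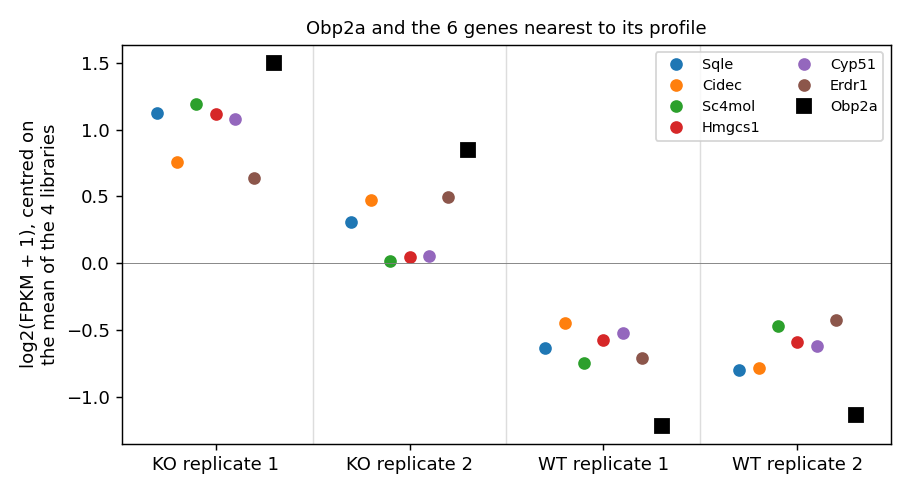
log2(FPKM + 1) of Obp2a (squares) and the 6 genes nearest to it (circles) in each library, centred on the mean of the 4 libraries. Obp2a has the highest values of the set in both KO libraries and the lowest in both WT libraries.

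Mup3 had very small differences between libraries, so its nearest genes were ones of nearly even level. They were Slc25a10, Zfp568, Acot12, Lyrm4, Ppap2c and Nxt2, at distances between 0.01 and 0.03. Slc25a10, the mitochondrial dicarboxylate carrier, had 40.9 and 42.9 FPKM in KO livers, against 35.9 and 41.03 FPKM in WT livers.

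Growth hormone acts on the liver through its receptor, JAK2 and STAT5, and keeps Mup genes high in males. Of 20 measured genes of this route, none was called by limma, 1 had an unadjusted p under 0.05, 12 had a positive and 8 a negative log2 difference, and the median was 0.06, beside 0.02 and 54.6% positive for all genes tested. Ghr, the receptor, had 151.7 and 153.7 FPKM in KO livers, against 155.3 and 146.7 FPKM in WT livers, and Stat5b had 10.7 and 12.8 FPKM in KO livers, against 11.8 and 13.8 FPKM in WT livers. Igfbp3, a carrier of insulin-like growth factors, had 8.69 and 8.48 FPKM in KO livers, against 4.29 and 3.94 FPKM in WT livers (log2 difference 0.91, SE 0.10, limma adjusted p = 0.108). Igf1 had 177.9 and 147.2 FPKM in KO livers, against 136.1 and 135.6 FPKM in WT livers. Leaving out either KO library raised the count of calls, as it did over all genes.

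Other male-biased hepatocyte genes, which like the Mup genes depend on the pulsed growth hormone of males, mostly had lower values in KO. Of 26 measured, 22 had a negative and 4 a positive log2 difference, with a median of −0.33, beside 54.6% positive and a median of 0.02 for all genes tested. Both KO libraries lay below both WT libraries in 9 of them and above in 1, beside 16.4% below and 22.4% above for all genes. None was called by limma and 1 had an unadjusted p under 0.05, beside 7.75% of all genes tested. With either KO library left out the count of calls rose, as the count over all genes did. Set against the mean of the WT libraries, KO replicate 1 had a list median of −0.05 and KO replicate 2 one of −0.54. Mup20, Mup21 and Mup5 were also lowest in KO replicate 2, while Mup3, Mup4 and Mup6 were highest in it. Slco1a1, an organic anion transporter, had 42.4 and 42.0 FPKM in KO livers, against 70.5 and 50.9 FPKM in WT livers. Gstp1, a glutathione transferase, had 2619 and 1609 FPKM in KO livers, against 3354 and 2939 FPKM in WT livers. Serpina3k had 7640 and 5433 FPKM in KO livers, against 9403 and 8756 FPKM in WT livers, and Moxd1 had 7.90 and 0.559 FPKM in KO livers, against 19.6 and 8.33 FPKM in WT livers.

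Of 11 measured female-biased genes, limma called 1 lower and none higher in KO, with 1 at an unadjusted p under 0.05. This was Cyp17a1, the steroid 17α-hydroxylase gene, with 0.469 and 0.677 FPKM in KO livers, against 3.59 and 3.15 FPKM in WT livers (log2 difference −1.48, SE 0.12, limma adjusted p = 0.0374). The difference of Cyp17a1 was −1.40 with WT replicate 1 left out and −1.55 with WT replicate 2 left out, at adjusted p = 0.644 and 0.411, where the KO pair alone gives the spread. Leaving out either of the KO libraries raised the count, as it did over all genes. The list median was 0.11, beside 0.02 for all genes tested. Of all genes tested, 0.0713% were called and 7.75% had an unadjusted p under 0.05.

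Genes of glucose output and uptake were counted since LCN13 and MUP1 were described as regulators of glucose metabolism in mice. A link between Obp2a and these genes was not tested. Of 21 measured, none was called by limma, 6 had an unadjusted p under 0.05, 8 had a positive and 13 a negative log2 difference, and the median was −0.17. Of all genes tested, 7.75% had an unadjusted p under 0.05 and 54.6% a positive difference, with a median of 0.02. Both KO libraries lay below both WT libraries in 9 and above in 3, beside the 16.4% and 22.4% of all genes. Pck1, which encodes an enzyme of gluconeogenesis, had 229 and 994 FPKM in KO livers, against 170.0 and 300.0 FPKM in WT livers. G6pc, for the last enzyme of that route, had 170.6 and 193 FPKM in KO livers, against 195 and 156 FPKM in WT livers. Both overlapped between the groups. Slc2a2, the hepatic glucose transporter, had 57.9 and 38.9 FPKM in KO livers, against 92.8 and 92.1 FPKM in WT livers (log2 difference −0.95, SE 0.19, limma adjusted p = 0.298). Slc37a4, which carries glucose-6-phosphate into the endoplasmic reticulum, had 54.3 and 44.1 FPKM in KO livers, against 89.1 and 77.1 FPKM in WT livers. Pklr and Pdk4 were the other 2 of the 4 largest differences without overlap, at log2 differences of −1.11 and −0.81. Calls rose with either KO library left out, as they did over all genes.

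Lipogenic genes, the known targets of SREBP1c, had mostly negative differences, unlike the positive one of Obp2a. The list also holds Srebf1, the gene knocked out, whose lower values go with the genotype labels. Of 14 measured, Srebf1 among them, 13 had a negative and 1 a positive log2 difference, with a median of −0.80. Limma called 1, Srebf1 itself, and none of the others. An unadjusted p under 0.05 was reached by 6, with Srebf1 again among them. Of all genes tested, 54.6% had a positive difference, 0.0713% were called and 7.75% had an unadjusted p under 0.05, with a median of 0.02. Thrsp, Acacb and Fasn had log2 differences of −2.48, −1.83 and −1.32 (limma adjusted p = 0.326, 0.0544 and 0.635). The count rose with either KO library left out, as the count over all genes did. It fell with either WT library left out, as did the count over all genes. There the WT arm holds 1 library, and Srebf1 kept differences of −2.76 and −2.88.

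Liver markers were high in all libraries, and the 10 of 11 listed that were in the table summed to 42762 and 45549 FPKM in KO, against 41088 and 45213 FPKM in WT. Obp2a is best known from nasal and glandular tissue, and of 20 markers of such tissue 12 were listed at 0 in all libraries, which is not read as absence, and 17 stayed under 1 FPKM. Bpifa1, Bpifb1, Bpifb9a, Bpifb9b and Obp1a were among those listed at 0, and the 3 above 1 FPKM, Cyp2a5, Cyp2f2 and Amy1, are also expressed by liver. All 9 kidney markers stayed under 1 FPKM, as did 13 of 14 pancreas markers.

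Some other marker sums moved with genotype beside Obp2a. The 7 bile duct markers summed to 50.5 and 41.9 FPKM in KO, against 25.6 and 23.8 FPKM in WT. In 4 of the 7, Spp1, Krt19, Krt7 and Epcam, both KO libraries lay above both WT libraries. Krt7 and Epcam had means under 1 FPKM and were not tested. Of the 3 bile duct markers tested this held in 2, beside 22.4% of all genes tested. Spp1 made up most of the sum in each library. Spp1 had 45.5 and 37.0 FPKM in KO livers, against 21.3 and 20.2 FPKM in WT livers, and Krt19 had 2.23 and 1.28 FPKM in KO livers, against 0.889 and 0.861 FPKM in WT livers. Krt7, Epcam, Cftr and Muc1 stayed under 1 FPKM. Sox9 had 1.18 and 2.09 FPKM in KO livers, against 2.20 and 1.44 FPKM in WT livers, a log2 difference of −0.11. Sox9, Cftr and Muc1 overlapped between the groups. The 7 adipocyte markers summed to 34.7 and 60.9 FPKM in KO, against 26.5 and 16.8 FPKM in WT. In 2 of them, Cfd and Cidec, whose values are given above, both KO libraries lay above both WT libraries, at mean folds of 64.5 and 2.85. Of the 3 adipocyte markers tested this held in 2, beside 22.4% of all genes tested. Fabp4, the most abundant by mean level, overlapped, with 22.4 and 21.7 FPKM in KO livers, against 22.9 and 14.3 FPKM in WT livers. Adipoq, Plin1 and Retn overlapped under 1 FPKM, with Adipoq at 0.0388 and 0.170 FPKM in KO, against 0.0775 and 0.0850 FPKM in WT. Lep was listed at 0 in all libraries. The 14 Kupffer and immune markers, 13 of them in the table, summed to 136 and 216 FPKM in KO, against 158 and 126 FPKM in WT. Stellate markers summed to 66.9 and 69.3 FPKM in KO, against 59.7 and 65.7 FPKM in WT, and endothelial markers to 75.4 and 90.01 FPKM in KO, against 70.2 and 74.3 FPKM in WT. The part of these cell types in the Obp2a difference was not tested.

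FPKM hides the number of fragments, but the steps between low values implied 22.8 and 20.7 M fragments in the KO libraries, against 22.8 and 20.8 M in the WT libraries. Between 48.6% and 51.3% of these values came within 0.1 of a whole number of fragments, so the depths are approximate and no count test was run.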

How the data were processed

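Liver RNA of 2 KO and 2 WT samples was measured, and groups and replicate numbers were read from the sample titles. The authors deposited FPKM, with 1 value for each RefSeq transcript in each library, per the file headers. Bowtie, TopHat and the mm10 build are named in the submitters' processing notes. Which program made the FPKM, from which annotation and with what strand setting, is not given in the sources used here.

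From the 33170 rows, values were summed per gene number, and genes with a mean of at least 1 FPKM entered limma 3.58.1 (R 4.3.3; moderated test of log2(FPKM + 1) with variance following intensity; Benjamini-Hochberg adjustment, threshold 0.05). Folds are ratios of group means. The smallest two-sided p of an exact permutation test is 0.333 with 2 against 2, and none was run. Members, lists and tests were chosen with earlier results of these data known. The genes named were the members, all lipocalins with a mean of at least 1 FPKM, coding neighbours of Obp2a, up to 4 genes per list with the largest differences without overlap, Srebf1 and the 6 nearest profiles; a few more were named after their values were seen. A simulation drew a variance for each of 9820 genes from the distribution limma fitted, with normal noise and the same variance in KO and WT. It recovered 82.9% of changes of 1 log2 unit and 98.7% of changes of 2, with 5.58% of the calls unchanged genes. Only a small random part of the genes was shifted, and these shares hold for that setting. In the real libraries 70 genes had a log2 difference of at least 1 in either direction and 7 genes were called. Whether the shares hold for the real libraries was not tested. Promoter windows were RefSeq's (GRCm38.p6), with 23847 genes matched by number, and transcripts were GENCODE's M21. No promoter window of Mup20 was used, and protein sequences are not used here. Sequences were aligned locally with Biopython 1.88, and tables were made with pandas 2.3.3. Alternatives were other pseudocounts, filters, scalings and thresholds, no trend, a replicate block, the deposited rows and each library left out.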

Additional observations from a re-analysis of the deposited data

How the results depend on the processing

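Under the other pseudocounts, scalings and row choice, the log2 difference lay between 2.32 and 2.53 for Obp2a, 0.09 and 0.13 for Mup3, −0.20 and −0.16 for Mup20 and 0.09 and 0.12 for Mup21. With a library left out it lay between 2.03 and 2.68 for Obp2a, 0.02 and 0.20 for Mup3, −0.37 and 0.01 for Mup20 and −0.18 and 0.42 for Mup21, so that Mup20 and Mup21 changed sign. The number of genes called, 7, was 11 with a pseudocount of 0.1, 0 without a filter (1233 at an unadjusted p under 0.05) and 3 with a mean of at least 5 FPKM, and ran from 1 to 357 with a library left out. Lists were mainly sensitive to the left-out library, with counts of 0 to 1 for Mup genes, 0 to 5 for other lipocalins, 0 to 12 for male-biased genes, 0 to 2 for female-biased genes, 0 to 5 for the growth hormone route, 0 to 6 for glucose genes and 0 to 8 for lipogenic genes. The 1 female-biased call became 0 without a filter, with a mean of at least 5 FPKM and with deposited rows. The 1 lipogenic call became 2 with a pseudocount of 0.1 or a threshold of 0.1, and 0 without a filter. With a KO library left out the spread comes from the WT pair alone, and with a WT library left out from the KO pair alone. The lone library is then assumed to vary like that pair. How much of these shifts comes from this was not tested.

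With the replicate number as a block, 19 genes were called in place of 7, 4 lipogenic genes in place of 1, and the difference of Obp2a was 2.35. Deviations of same-numbered libraries correlated at 0.17 over genes, which with only 2 numbers shared between the groups does not show that the samples were paired. The 2 libraries per group, and unknown treatment of fragments shared between Mup genes, limit every value given.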

Other observations

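Since 4 of the 6 genes nearest to Obp2a were enzymes of cholesterol synthesis, a list of 24 genes of cholesterol synthesis and uptake, chosen after these values were seen, was placed by the same distance as a description. Of the 20 besides those 4, 11 were among the 100 genes nearest to Obp2a and 5 among the 20 nearest, of 9819. This rests on KO replicate 1. Without it, 0 of the 20 were among the 100 nearest, against 14 without KO replicate 2, 11 without WT replicate 1 and 7 without WT replicate 2. Mvk and Idi1, early enzymes of the route, had ranks of 8 and 9. Mvk had 69.0 and 34.4 FPKM in KO livers, against 22.2 and 23.5 FPKM in WT livers, and Idi1 had 582 and 231 FPKM in KO livers, against 184 and 163 FPKM in WT livers. Insig1 and Sc5d lay farthest, at ranks of 9226 and 8533, and were the 2 with a negative log2 difference. KO replicate 1 was the highest library for 23 of the 24 genes, as it was for Obp2a and for 26.7% of all 9820 genes, and being near to Obp2a brings this with it. The KO libraries were less alike for the list than for Obp2a. Relative to the WT mean, KO replicate 1 had a list median of 1.16 and KO replicate 2 one of 0.11 on the log2 scale, while Obp2a lay at 2.68 and 2.03.

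Srebf2, the gene of SREBP2, which drives these enzymes, had 24.2 and 19.7 FPKM in KO livers, against 13.9 and 14.3 FPKM in WT livers, and ranked 54th by distance to Obp2a.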
